A study of Saccharomyces cerevisiae with 6 samples.

Results

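The 10 genes described here encode the enzymes that build and break down trehalose and glycogen, the 2 storage carbohydrates of *Saccharomyces cerevisiae*. They were chosen by name, and all 10 were found among the 5925 genes of the deposited tables. They are *TPS1*, *TPS2*, *TPS3* and *TSL1* for trehalose synthesis, *NTH1* and *NTH2* for trehalose breakdown, *GSY1*, *GSY2* and *GLC3* for glycogen synthesis and *GPH1* for glycogen breakdown. Their mRNA was compared between BSGX001 and BSGX001 (thi2Δ), with 3 libraries of each strain. Both strains derive from CEN.PK 113-5D and, per the labels, share Ru-XI and XK, *gre3*::PPP, cox4delta and an adaptive evolution in xylose, so the control strain is itself heavily engineered. The second strain is additionally labelled as lacking *THI2*, which encodes an activator of thiamine synthesis genes. Cells were grown at 30 °C and 200 rpm in YNB (yeast nitrogen base) with a mixture of 20 g/L of glucose and as much xylose, and were sampled after 20 h, which the labels call the GX stage. The labels number the libraries of a strain as replicates without saying whether they came from separate cultures, so the tests below measure the spread between these libraries.

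Trehalose is made from UDP-glucose and glucose-6-phosphate by a complex in which Tps1 forms trehalose-6-phosphate and Tps2 removes the phosphate, while Tps3 and Tsl1 are its larger regulatory subunits. Neutral trehalase, encoded by *NTH1* and its paralog *NTH2*, splits trehalose into glucose. Glycogen chains are primed by glycogenin, lengthened by glycogen synthase (Gsy1 and Gsy2), branched by Glc3 and shortened by glycogen phosphorylase, Gph1. Yeast stores both carbohydrates as growth slows and glucose runs out, and many of their genes carry stress response elements, the sites of the activators Msn2 and Msn4, whose action is held back by protein kinase A.

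The stress response element has the core AGGGG, which reads CCCCT on the other strand. It was searched on both strands in the 500 bases before each start codon in the S288C reference R64, the build named in the submitters' processing notes. These windows can reach into a neighbouring gene, and a match is a run of letters and not a shown binding site. Of the 10 genes, 9 held at least 2 matches, compared with 8.25% of the 5904 genes with such a window, and *NTH2* held 0. The 3 genes with the most matches were *TPS1* with 6, *TSL1* with 5 and *TPS2* with 4. At least 4 matches were found for 0.457% of all windows. The match nearest to the start codon is printed for each of the 6 genes that differed between the strains, to show the bases around the core. It is given 5′ to 3′ on the strand of the gene, with the core in capitals.
GSY2, chrXII:660510-660534, plus strand: acgcaattcaCCCCTttctttctta
GSY1, chrVI:176709-176733, minus strand: acaagtaataCCCCTtggaggattt
GLC3, chrV:132897-132921, plus strand: gctttgtccaAGGGGctgttgcaac
NTH1, chrIV:452613-452637, minus strand: agaaattttcCCCCTatcgttttcc
TPS2, chrIV:593575-593599, plus strand: gtctgattatAGGGGttagttacgc
TPS3, chrXIII:793572-793596, minus strand: attaattaatCCCCTtcagcacgca
The core began 196 bases before the start codon in *GSY2*, 332 in *GSY1*, 213 in *GLC3*, 152 in *NTH1*, 308 in *TPS2* and 217 in *TPS3*. *GSY2* and *GSY1*, which were higher in BSGX001 (thi2Δ), each had 2 matches. Of the lower genes, *TPS2* had 4, *NTH1* 3, *GLC3* 3 and *TPS3* 2. Whether the number of matches goes with the direction was not tested.

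The libraries held 7584920 to 12255688 counts, and each of the 10 genes had at least 594 counts in every library. *THI2* (chromosome II) was read at 22.7, 24.5 and 27.0 CPM (counts scaled to the size of the library, here with TMM, the trimmed mean of M values) in BSGX001 and at 9.81, 10.9 and 13.9 CPM in the libraries labelled thi2Δ. It was therefore lower but not absent there, so the strain name below stands for the libraries so labelled. In those libraries the genes of chromosome XII between *ECM22* and *GAS2* stood about 2-fold higher, with a median log2 difference of 1.06 over 107 genes, and those of chromosome I with 0.99 over 85 genes. *GSY2* lies in the chromosome XII stretch. That stretch was known from earlier results of these data, so its raised level is not tested anew here. A gene was called where its adjusted p (edgeR quasi-likelihood test, Benjamini-Hochberg) was under 0.05. Among 5774 genes tested, 1507 were called higher and 1457 lower, together 51.3% of all genes. The split depended on the scaling, and was 2999 higher and 595 lower with counts scaled to library totals, which moved the median of all genes by 0.22 on the log2 scale.

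Of the 10 genes, 6 were called, 2 higher (26.1% of all genes) and 4 lower (25.2% of all genes), so their share was close to that of the whole table. The 2 glycogen synthase genes rose and the branching enzyme gene *GLC3* fell, while *TPS2*, *TPS3* and *NTH1* of trehalose metabolism fell. *TPS1*, *TSL1*, *NTH2* and *GPH1* did not pass the test. The libraries of the strains did not overlap for 7 of the 10 (57.8% of all genes), 2 of them higher (29.1% of all genes) and 5 lower (28.7% of all genes). The log2 fold changes ran from -0.46 for *TPS3* to 0.62 for *GSY2*, with a median of -0.079 beside 0.0093 over all genes tested, and 0 of the 10 changed by 2-fold or more, which 2.39% of all genes did. With library totals, 5 of the 10 were higher and 3 lower, beside 2999 and 595 of the 5774 genes, and their median was 0.14. It was -0.034 without BSGX001 (thi2Δ) replicate 2. Because the counts are relative to all reads of a library, a change in the amount of an mRNA per cell cannot be told apart from a change in the other mRNAs.

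**Figure D1:**
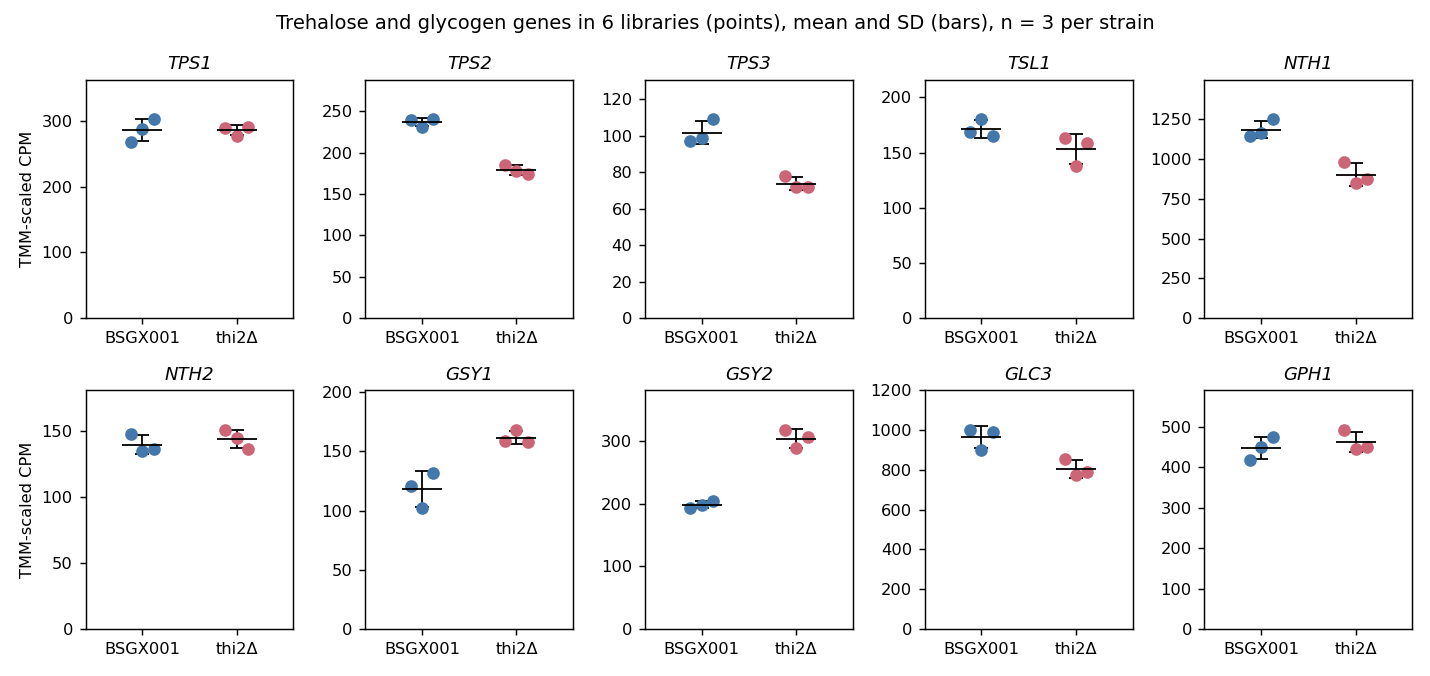
TMM-scaled CPM (vertical axes, from 0) of the 10 genes in each library, with blue points for BSGX001 and red points for BSGX001 (thi2Δ), and the mean and SD as black bars (n = 3). The libraries of the strains do not overlap for *TPS2*, *TPS3*, *TSL1*, *NTH1*, *GSY1*, *GSY2* and *GLC3*, and they overlap for *TPS1*, *NTH2* and *GPH1*.

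Levels were compared between genes with the deposited FPKM, which divide a count by the length of the gene and by the library total. In BSGX001, the neutral trehalase gene *NTH1* was the most abundant of the 10, at 487 ± 15.4 FPKM (SD, n = 3), above the mean level of 94.4% of all genes. *GLC3* followed with 423 ± 25 FPKM, then *TPS1* with 178 ± 7.78, *GPH1* with 153 ± 7.09, *GSY2* with 86.7 ± 1.02 and *TPS2* with 81.5 ± 1.98 FPKM (SD, n = 3 each). The lower 4 were *NTH2* with 55.5 ± 3.37, *GSY1* with 51.5 ± 6.11, *TSL1* with 48.2 ± 2.45 and *TPS3* with 29.8 ± 1.48 FPKM (SD, n = 3 each). *NTH2* and *GSY1* overlapped, as did *GSY1* and *TSL1*, while all other neighbours in this order were apart in all 3 libraries. The subunit genes of the trehalose complex thus differed in level, and *TPS3* was the least abundant of all 10 in both strains.

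In BSGX001 (thi2Δ) the top 5 places were held by the same genes in the same order, with *NTH1* at 431 ± 29.2 FPKM and *GLC3* at 410 ± 17.8 FPKM (SD, n = 3 each), which overlapped here. *GSY1* moved from the eighth to the sixth place, at 81.9 ± 3.44 FPKM, above *TPS2* at 71.7 ± 1.61 and *NTH2* at 66.4 ± 2.59 FPKM (SD, n = 3 each). Replicate libraries agreed closely, with a coefficient of variation of the TMM-scaled CPM between 2.22% for *TPS2* and 12.5% for *GSY1* in BSGX001, and between 2.63% for *TPS1* and 8.96% for *TSL1* in BSGX001 (thi2Δ). Single libraries leaned one way across the genes. BSGX001 replicate 3 was the highest library of its strain for 7 of the 10 genes, and BSGX001 (thi2Δ) replicate 1 was the highest of its strain for 8. The share of all genes that were highest in these libraries was not counted, so the lean may not be particular to the 10.

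Of the catalytic subunit genes of trehalose synthesis, *TPS2* was called and *TPS1* was not. *TPS1* (YBR126C, chromosome II from 488905 to 490392, 1 exon), which encodes the synthase that makes trehalose-6-phosphate, had 268, 288 and 302 CPM in BSGX001 and 289, 277 and 291 CPM in BSGX001 (thi2Δ). The libraries of the strains overlapped fully, and the log2 fold change was 0.00015 (standard error, SE, 0.067; edgeR adjusted p = 0.998). It was 0.22 (edgeR adjusted p = 0.00422) with library totals, close to the shift of all genes under that scaling.

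*TPS2* (YDR074W, chromosome IV from 593893 to 596583, 1 exon), which encodes the phosphatase that completes trehalose, had 239, 231 and 240 CPM in BSGX001 and 185, 178 and 174 CPM in BSGX001 (thi2Δ). Every BSGX001 (thi2Δ) library lay below every BSGX001 library. *TPS2* fell by 0.40 on the log2 scale, to 0.757 of the BSGX001 level (SE 0.067, edgeR adjusted p = 8.85e-06). It was called lower under all the alternatives tried, with values between -0.43 and -0.18.

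*TPS3* (YMR261C, chromosome XIII from 790205 to 793369, 1 exon), a regulatory subunit gene, had 97.1, 99.0 and 109 CPM in BSGX001 and 77.9, 71.9 and 71.7 CPM in BSGX001 (thi2Δ). The strains did not overlap, and *TPS3* fell by 0.46 on the log2 scale, to 0.727 of the BSGX001 level (SE 0.076, edgeR adjusted p = 9.1e-06). Its paralog *TSL1* (YML100W, chromosome XIII from 70624 to 73920, 1 exon) had 169, 180 and 165 CPM in BSGX001 and 163, 138 and 159 CPM in BSGX001 (thi2Δ). The BSGX001 (thi2Δ) libraries were again the lower ones, by a narrow margin, and the log2 fold change of -0.16 (SE 0.073, edgeR adjusted p = 0.0703) did not pass the test. It passed only without BSGX001 (thi2Δ) replicate 1, at -0.21 (edgeR adjusted p = 0.0294), and its sign turned when the counts were scaled to library totals, at 0.057 (edgeR adjusted p = 0.506).

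For trehalose breakdown, *NTH1* (YDR001C, chromosome IV from 450220 to 452475, 1 exon) had 1146, 1161 and 1248 CPM in BSGX001 and 983, 848 and 876 CPM in BSGX001 (thi2Δ). All BSGX001 (thi2Δ) libraries were below all BSGX001 libraries. The gene fell by 0.39 on the log2 scale, to 0.762 of the BSGX001 level (SE 0.075, edgeR adjusted p = 5.73e-05). With limma on log2(FPKM + 1) the fall was smaller, at -0.18, and did not pass (limma adjusted p = 0.063). *NTH2* (YBR001C, chromosome II from 238941 to 241283, 1 exon), the less abundant paralog, had 148, 135 and 137 CPM in BSGX001 and 151, 145 and 137 CPM in BSGX001 (thi2Δ). These overlapped, and the log2 fold change was 0.044 (SE 0.071, edgeR adjusted p = 0.626). With library totals the value was 0.26 (edgeR adjusted p = 0.00248).

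Both glycogen synthase genes were higher in BSGX001 (thi2Δ). *GSY1* (YFR015C, chromosome VI from 174265 to 176391, 1 exon) had 121, 102 and 132 CPM in BSGX001 and 159, 168 and 158 CPM in BSGX001 (thi2Δ). The strains did not overlap, and *GSY1* rose 1.37-fold, a log2 fold change of 0.45 (SE 0.079, edgeR adjusted p = 1.74e-05). It lies outside the 2 regions of doubled level, and it was called higher under all the alternatives tried, with values between 0.36 and 0.67.

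*GSY2* (YLR258W, chromosome XII from 660716 to 662833, 1 exon), the more abundant synthase gene, had 193, 198 and 204 CPM in BSGX001 and 317, 288 and 306 CPM in BSGX001 (thi2Δ). The lowest BSGX001 (thi2Δ) library was well above the highest BSGX001 library, and *GSY2* rose 1.53-fold, a log2 fold change of 0.62 (SE 0.067, edgeR adjusted p = 4.66e-09). This was the largest change among the 10 genes. A rise of *GSY2* itself and the shift of the whole chromosome XII stretch cannot be told apart. Relative to the mean of BSGX001 and to the median gene of the library, the stretch had a median of 1.00 in BSGX001 (thi2Δ) replicate 1, 1.02 in replicate 2 and 1.01 in replicate 3 (log2).

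Within the stretch *GSY2* was among the less raised genes. Of its 107 tested genes, 103 were called higher, beside 26.1% of all genes. The stretch was known from earlier results of these data, so this count is no test of its level. The middle range of the 107 log2 fold changes, from the lower to the upper quartile, was 0.88 to 1.26. *GSY2* lay below that range, with 13 genes lower and 93 higher, and 0.44 below the median of the stretch. The gene before it, *YLR257W*, annotated as an uncharacterized protein, was at 0.61 (SE 0.071), and the gene before that, *YLR256W-A*, annotated as a gag protein, at -0.67 (SE 0.10). After it came *HSP60*, which encodes a mitochondrial chaperone, at 0.84 (SE 0.078) and *LCB5*, a sphinganine kinase gene, at 0.88 (SE 0.068). Whether reads of *YLR256W-A* are shared with other copies of such elements was not tested.

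**Figure D2:**
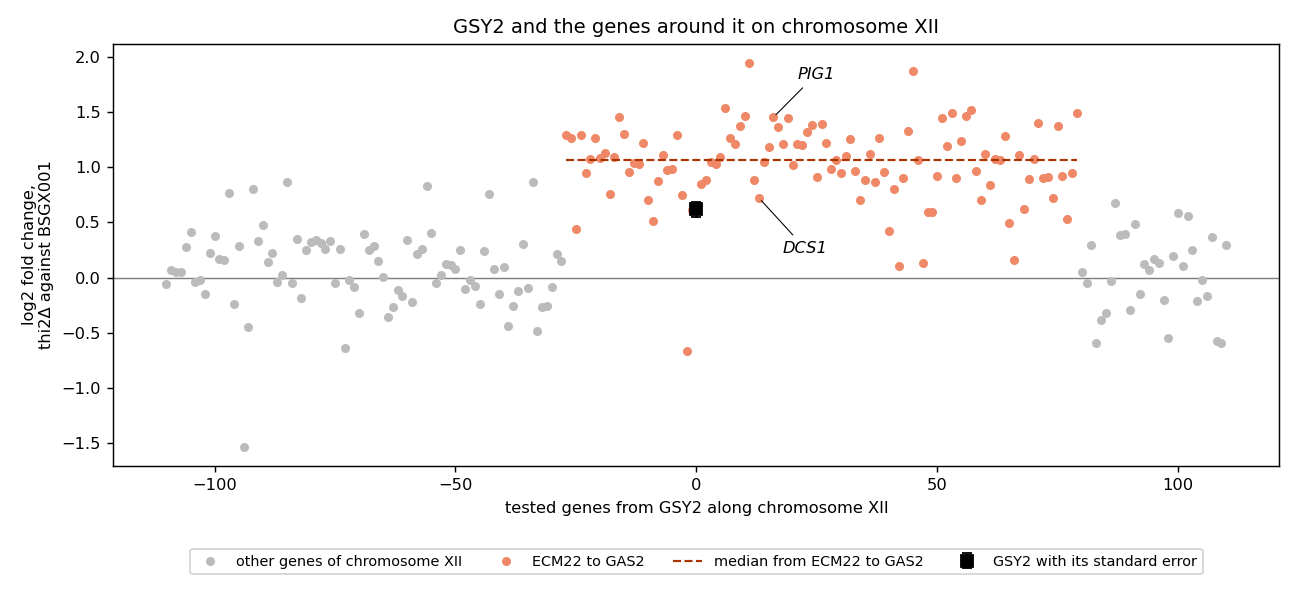
Log2 fold change of BSGX001 (thi2Δ) against BSGX001 (vertical axis) for tested genes of chromosome XII in gene order, counted from *GSY2* (horizontal axis), with the genes from *ECM22* to *GAS2* in orange and others in grey. *GSY2* (black square with its standard error, 0.62) sits below the dashed median of 1.06, and *PIG1* and *DCS1*, which also act in storage carbohydrate metabolism, are named.

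The branching enzyme gene went the other way. *GLC3* (YEL011W, chromosome V from 133120 to 135234, 1 exon) had 1000, 902 and 993 CPM in BSGX001 and 855, 772 and 789 CPM in BSGX001 (thi2Δ). The strains did not overlap, and *GLC3* fell by 0.26 (log2), to 0.835 of the BSGX001 level (SE 0.072, edgeR adjusted p = 0.00339). Scaled to library totals the log2 fold change was -0.045 (edgeR adjusted p = 0.572), so the call on *GLC3* rested on the scaling. *GPH1* (YPR160W, chromosome XVI from 861306 to 864014, 1 exon), the phosphorylase gene, had 419, 451 and 474 CPM in BSGX001 and 492, 446 and 451 CPM in BSGX001 (thi2Δ). These overlapped, with a log2 fold change of 0.050 (SE 0.070, edgeR adjusted p = 0.572), and it was 0.27 (edgeR adjusted p = 0.000806) with library totals.

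Ratios of 2 of these genes within one library do not depend on the scaling between libraries, so 6 of them were formed from counts per base. *GLC3* to *GSY2*, the branching enzyme gene to the more abundant synthase gene, was 5.2, 4.56 and 4.89 in BSGX001 and 2.71, 2.68 and 2.58 in BSGX001 (thi2Δ). The strains were far apart, and the ratio fell by 0.88 (log2; SE 0.058). *GPH1* to *GSY2*, the phosphorylase gene to the same synthase gene, was 1.70, 1.78 and 1.82 in BSGX001 and 1.21, 1.21 and 1.15 in BSGX001 (thi2Δ). It fell by 0.57 (log2; SE 0.038), and in both strains *GPH1* had more counts per base than *GSY2* alone, *GSY1* not being part of the ratio. Both ratios contain *GSY2* and so the chromosome XII stretch.

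The other ratios compare partners of one complex or paralogs. *TPS2* to *TPS1* was 0.493, 0.443 and 0.441 in BSGX001 and 0.354, 0.355 and 0.330 in BSGX001 (thi2Δ), a log2 difference of -0.40 (SE 0.063). *NTH2* to *NTH1* was 0.124, 0.112 and 0.106 in BSGX001 and 0.148, 0.165 and 0.151 in BSGX001 (thi2Δ), a log2 difference of 0.44 (SE 0.082). *TSL1* to *TPS3* was 1.67, 1.74 and 1.45 in BSGX001 and 2.01, 1.84 and 2.13 in BSGX001 (thi2Δ), a log2 difference of 0.30 (SE 0.10). In these 3 the strains did not overlap. *GSY2* to *GSY1* was 1.61, 1.94 and 1.55 in BSGX001 and 2.00, 1.72 and 1.95 in BSGX001 (thi2Δ). These overlapped, with a log2 difference of 0.16 (SE 0.12). Of these 2 genes, only *GSY2* lies in the chromosome XII stretch. With 3 libraries per strain, an overlap does not show that both changed equally. For the 5 ratios that did not overlap, the exact two-sided permutation test gave p = 0.1, the smallest value 3 against 3 libraries allow, and 0.12 after adjustment over the 6 ratios. How often ratios of other gene pairs would not overlap was not counted, and 57.8% of single genes did not. For *GSY2* to *GSY1* the exact permutation p was 0.2, and no ratio could pass 0.05 in this design.

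**Figure D3:**
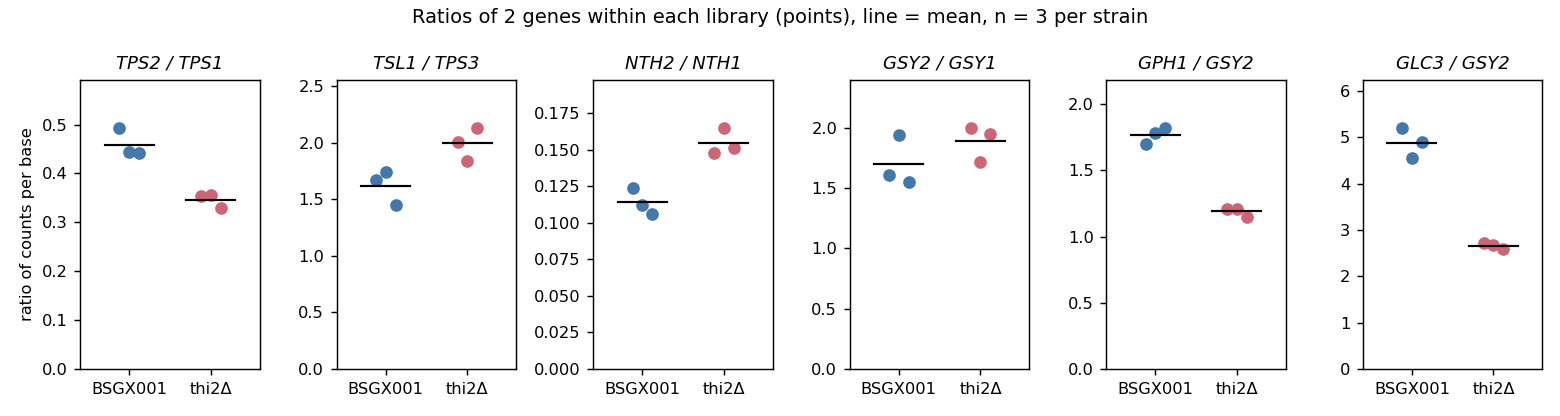
Ratios of counts per base of 2 genes within each library (vertical axes, from 0), blue for BSGX001 and red for BSGX001 (thi2Δ), with the mean as a line. *GLC3* to *GSY2* drops from a mean of 4.88 to 2.66, *GPH1* to *GSY2* from 1.77 to 1.19 and *TPS2* to *TPS1* from 0.459 to 0.347, and only *GSY2* to *GSY1* overlaps between the strains.

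The paralogs differ in sequence, which bears on how their reads are counted. In R64 the coding sequences of *GSY1* and *GSY2* were 73.2% identical over 2113 aligned bases, those of *NTH1* and *NTH2* 72.4% over 2245 and those of *TPS3* and *TSL1* 67.2% over 3080. No run of 50 bases was shared within any of the 3 pairs. The longest shared runs are printed for the 2 closer pairs to show over which stretches their letters are the same.
GSY1, chrVI:176315-176334, minus strand, and GSY2, chrXII:660773-660792, plus strand: agggttggtggtatttactc
NTH1, chrIV:451472-451504, minus strand, and NTH2, chrII:240193-240225, minus strand: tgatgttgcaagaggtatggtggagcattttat
These runs are 20 and 33 bases long. How reads that fit both paralogs were counted is not given in the sources used here, and the sequences are those of S288C, not of the strains studied.

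A further 26 genes of storage carbohydrate metabolism were read in the same fit, and all 26 were tested. In BSGX001 (thi2Δ) 11 of them were higher and 4 lower, 57.7% beside 51.3% of all genes tested, with a median of 0.15 beside 0.0093 on the log2 scale. Outside the 2 regions of doubled level, 8 of 23 were higher and 4 were lower, beside 1321 and 1455 of all 5582 genes tested there. With library totals 17 of the 26 were higher and 0 lower, when 2999 of the 5774 genes were higher and 595 lower. With limma on log2(FPKM + 1) the numbers were 16 and 0, beside 2858 and 515 of all genes. The number of lower genes was 2 without BSGX001 replicate 3 and 2 without BSGX001 (thi2Δ) replicate 3.

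Glycogen is started on glycogenin, and both its genes were higher. *GLG2* went from 78.1 ± 4.98 to 108 ± 2.75 CPM (SD, n = 3 each), a rise of 0.47 on the log2 scale (SE 0.075, edgeR adjusted p = 4.63e-06). *GLG1* rose by 0.18 (SE 0.071, edgeR adjusted p = 0.0348), a call that was lost without any 1 of 5 of the 6 libraries, with adjusted p up to 0.11. It held without BSGX001 replicate 2, and was also lost with DESeq2 (adjusted p = 0.0506).

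Glycogen synthase is switched on by the phosphatase Glc7, which targeting subunits bring to it. Among these subunit genes, *PIG1* had the largest rise of the list, from 30.7 ± 1.94 to 83.5 ± 5.10 CPM (SD, n = 3 each), a log2 fold change of 1.45 (SE 0.086, edgeR adjusted p = 1.22e-14). *PIG1* lies in the same chromosome XII stretch as *GSY2*. The other 3 targeting subunit genes, *PIG2*, *GIP2* and *GAC1*, were named after their values had been seen, to complete this group. They lie outside both regions, and *PIG2* rose by 0.51 (SE 0.073) and *GIP2* by 0.36 (SE 0.071), while *GAC1*, at -0.15 (SE 0.070, edgeR adjusted p = 0.0669), did not pass. *GAC1* passed without BSGX001 (thi2Δ) replicate 1, at -0.20 (edgeR adjusted p = 0.0232), and its sign turned with library totals, at 0.064.

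Of the 5 named genes that supply sugar to the stores or release it, *PGM2* and *ATH1* were called. *PGM2*, the main phosphoglucomutase gene, rose by 0.32 (SE 0.066, edgeR adjusted p = 0.000149), from 247 ± 9.76 to 309 ± 4.59 CPM (SD, n = 3 each). Its paralog *PGM1*, at -0.12 (SE 0.075), and *UGP1*, which makes UDP-glucose, at -0.056 (SE 0.071), did not pass, and the sign of both turned with library totals, where *UGP1* passed at 0.161 (edgeR adjusted p = 0.0452). *ATH1*, the acid trehalase gene, rose by 0.28 (SE 0.068, edgeR adjusted p = 0.00117), from 227 ± 8.87 to 275 ± 15.4 CPM (SD, n = 3 each), whereas *NTH1* was lower. *GDB1*, the glycogen debranching enzyme gene, was at 0.14 (SE 0.070) and did not pass (edgeR adjusted p = 0.0983). It passed without BSGX001 replicate 3, at 0.20 (edgeR adjusted p = 0.031), and with library totals, at 0.36.

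The next largest rises of the list after *PIG1*, and its largest called falls, were in regulators of these enzymes. *PSK1* on chromosome I, which encodes a PAS kinase that phosphorylates Ugp1 and Gsy2, rose by 0.76 (SE 0.071), while its paralog *PSK2* fell by 0.37 (SE 0.075). *DCS1*, in the chromosome XII stretch, whose product is known as an inhibitor of neutral trehalase, rose by 0.72 (SE 0.071). *BMH1*, a 14-3-3 gene whose product activates Nth1, fell by 0.28 (SE 0.074), and *IGD1*, an inhibitor of glycogen debranching, fell by 0.21 (SE 0.077). For *IGD1* the libraries of the strains overlapped. The calls on *PSK2*, *BMH1* and *IGD1* were lost with library totals, where the log2 fold changes were -0.16, -0.065 and 0.0085. The call on *IGD1* was also lost without BSGX001 replicate 3, at -0.12, without BSGX001 (thi2Δ) replicate 2, at -0.14, and without BSGX001 (thi2Δ) replicate 3, at -0.21.

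**Figure D4:**
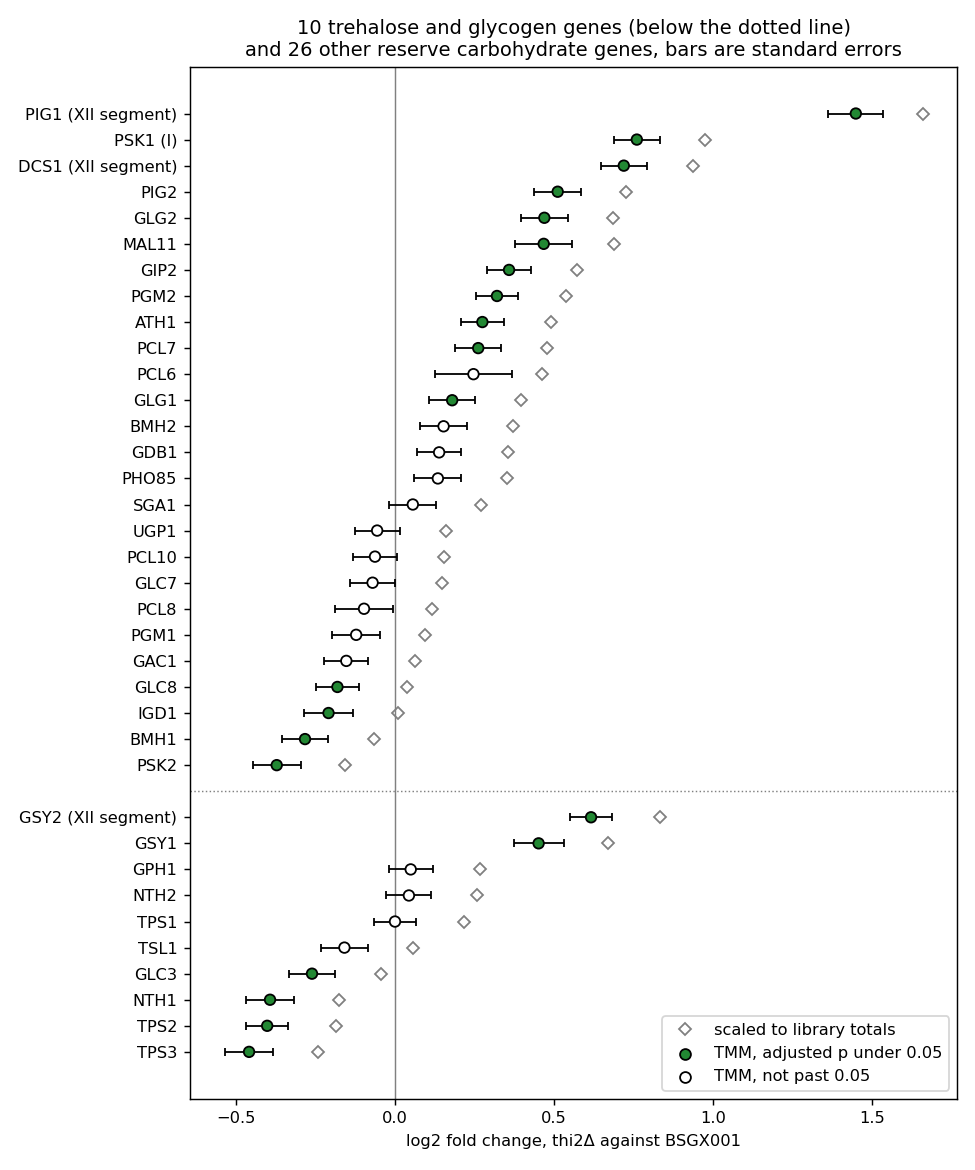
Log2 fold change of BSGX001 (thi2Δ) against BSGX001 (horizontal axis) for the 10 genes, below the dotted line, and the 26 other storage carbohydrate genes above it. Circles are TMM-scaled values with standard errors, filled where the adjusted p was under 0.05, and grey diamonds are the values scaled to library totals, each of which lies to the right of its circle by about 0.22.

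Of 14 regulators that act on these genes, 6 were lower in BSGX001 (thi2Δ) and 1 was higher, 7 of 14 in all beside 51.3% of all genes, with a median of -0.13 on the log2 scale. None of the 14 lies in the regions of doubled level. *MSN4*, which encodes one of the stress response element activators, fell by 0.61 on the log2 scale (SE 0.073, edgeR adjusted p = 3.13e-08), from 575 ± 21.1 to 376 ± 37.3 CPM (SD, n = 3 each), and was called lower under all the alternatives tried. In the protein kinase A pathway, *CYR1*, the adenylate cyclase gene, fell by 0.38 (SE 0.074) and *BCY1*, which encodes the inhibitory subunit of the kinase, fell by 0.38 (SE 0.068). Neither passed with limma on log2(FPKM + 1). With library totals 5 of the 14 were higher and 4 lower, with a median of 0.083, beside 2999 and 595 of the 5774 genes. With limma on log2(FPKM + 1) 3 were higher and 1 was lower, beside 2858 and 515 of all genes.

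Of 31 other genes of the general stress response that Msn2 and Msn4 are known to act on, 13 were lower and 9 higher, 71.0% beside 51.3% of all genes, with a median of -0.021 on the log2 scale. Among the lower ones were *HOR7*, at -0.998 (SE 0.081), *SPI1*, a cell wall protein gene, at -0.98 (SE 0.085), and *HSP104*, which encodes a disaggregase, at -0.87 (SE 0.090). *HSP104* went from 8319 ± 708 to 4548 ± 436 CPM (SD, n = 3 each). Among the higher ones were *SIP18* at 0.65 (SE 0.19), *GRE1* at 0.59 (SE 0.081) and *TMA10*, which lies in the chromosome XII stretch, at 0.49 (SE 0.083). The call on *SIP18* was lost without BSGX001 replicate 1 (edgeR adjusted p = 0.132) or BSGX001 (thi2Δ) replicate 2 (edgeR adjusted p = 0.121). Changes in both directions stood side by side, and with library totals 16 of the 31 were higher and 8 lower, with a median of 0.20, beside 2999 and 595 of the 5774 genes. The median lay near 0 and its sign depended on single libraries, at 0.032 without BSGX001 replicate 3 and -0.095 without BSGX001 replicate 1. Without BSGX001 (thi2Δ) replicate 3, 17 of the 31 were called, beside 2484 of all genes.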

How the data were processed

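RNA of 6 poly(A) libraries was sequenced by the authors on an Illumina HiSeq instrument. They deposited per gene and library an expected count, whole for every gene, and an FPKM. Per the deposited values, FPKM equals the count divided by the spliced R64 gene length and the library total, within 1% for all 2720 genes that reached 500 counts in each library. The submitters' processing notes name R64 and DESeq; the aligner and counter are not given in the sources used here. The authors' own comparison of the strains (log2 fold changes, p-values and q-values) was not used, nor were 12 columns that repeat the per-library values. Of 5925 gene IDs, 5923 matched R64.

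Counts were compared with edgeR 4.0.16 in R 4.3.3 (TMM, filterByExpr, robust quasi-likelihood fit, no block), with Benjamini-Hochberg adjustment over 5774 genes. Standard errors are the absolute log2 fold change over the square root of F. Alternatives were DESeq2 1.42.0, limma 3.58.1 on log2(FPKM + 1) and log2(FPKM + 0.1), DESeq2 size factors, library totals, other filters, a replicate block, omission of the genes on chromosome I or in the chromosome XII stretch, and each library left out. Tested on simulated counts of 5774 genes, edgeR made 6 false calls. It recovered 91 of 100 genes changed by 0.5 and 100 of 100 changed by 1 on the log2 scale. Its recovery with as many changed genes as were called here, or with library totals, was not tested. No libraries were duplicates, as every pair within a strain differed by a chi-square of at least 4.04 per degree of freedom.

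The genes and lists were chosen with earlier results of these data known. Genes named beside the 10 are the direct enzymes *GLG1*, *GLG2*, *GDB1*, *ATH1*, *UGP1*, *PGM1* and *PGM2*, the 3 largest called rises and falls of each list (fewer where fewer were called), the neighbours of *GSY2* and *THI2*. One gene that this rule names is not reported here.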

Additional observations from a re-analysis of the deposited data

How the results depend on the processing

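The number of genes called was 2964 with all libraries and lower, at 2484 to 2833, with 1 library left out. With all libraries, 138 genes also changed by at least 2-fold, among them 0 of the 10 storage carbohydrate genes. The number of these 10 called, 6, was 6 to 7 with 1 library left out, 8 with library totals, 7 with limma and 5 without the genes of the 2 doubled regions, which removes *GSY2* by construction. Of the 14 regulators, 4 were called with limma on log2(FPKM + 1) and 4 with log2(FPKM + 0.1), in place of 7. *TPS2*, *TPS3*, *GSY1* and *GSY2* kept their call and direction under every alternative that gave them a value. *NTH1* lost its call with limma on log2(FPKM + 0.1), at -0.18, and *GLC3* with library totals and both limma fits, at -0.045 and -0.044. Signs turned as follows. *TPS1*, near 0, was -0.0054 with DESeq2 size factors, -0.0049 with the DESeq2 Wald test and -0.043 to 0.041 with 1 library left out. Under library totals, then limma on log2(FPKM + 1), then limma on log2(FPKM + 0.1), *TSL1* was 0.057, 0.052 and 0.053, *UGP1* 0.161, 0.160 and 0.161, *PGM1* 0.094, 0.095 and 0.097, *IGD1* 0.0085, 0.0052 and 0.0052, and *GAC1* 0.064, 0.062 and 0.062. These 3 settings share scaling to library totals, which moves all genes by about 0.22.

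With the replicate number as a block, 3020 genes and 6 of the 10 were called, and the log2 fold change was 0.62 for *GSY2* and -0.26 for *GLC3*. No pairing by number was seen, as the deviations from the strain mean of libraries with the same number had correlations of 0.083, -0.068 and -0.054. With 3 libraries per strain, these values cannot exclude a pairing. Over the 6 ratios, the log2 differences kept their sign with each library left out and with the deposited FPKM, from which they differ only by rounding. Each value rests on 3 libraries per strain, and the 10 genes had 594 or more counts in each.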
